A study of Mus musculus with 2 samples.

Results

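The cells described here are the multiciliated cells of the airway in an scRNA-Seq experiment on mouse lung. They were chosen by measured values, as droplet barcodes with at least 10 unique molecular identifiers (UMIs) in all from *Foxj1*, *Tmem212*, *Ccdc153*, *Dynlrb2*, *Rsph1* and *1110017D15Rik*. A barcode also had to hold at least 200 genes and 3000 UMIs, no more than 20% mitochondrial UMIs, less than 3% *Sftpc* UMIs and no UMI of the leukocyte gene *Ptprc*. This left 238 cells of 25094 barcodes, 203 of 11721 in the *Cebpa* fl/fl library and 35 of 13373 in the *Cebpa*ΔSftpc library. The levels of the 6 selection genes are therefore given as a description.

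The experiment had 1 library per genotype, each from the lungs of 3 mice whose cells cannot be told apart by barcode. Control mice carried 2 floxed alleles of *Cebpa*. *Cebpa*ΔSftpc mice carried these alleles and Sftpc-CreERT2, a tamoxifen-inducible Cre driven in cells that express *Sftpc*, mainly the alveolar type 2 (AT2) cells, so the deletion was aimed at another cell type than the one described here. Both groups of mice had mixed backgrounds, were 3 months old by the study's general statement, and received tamoxifen at 75 mg/kg on 5 days in a row, with the lungs taken 26 weeks from the first dose. The study's methods add a later round of weekly tamoxifen for analyses this late. With 1 library per genotype no difference has a replicate check, and no test between genotypes was made. Every interval below is a 95% interval that covers counting error only.

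Multiciliated cells line the airways and carry many motile cilia, whose beating moves mucus and trapped particles out of the lung. The core of a motile cilium is the axoneme, a ring of 9 doublet microtubules around a central pair, with outer and inner dynein arms as motors, and with radial spokes and the nexin-dynein regulatory complex to coordinate their strokes. The programme is built by GEMC1 and multicilin, which start the multiplication of centrioles, and by FOXJ1 and the RFX factors, which switch on the genes of the axoneme.

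Of the selection genes, *Foxj1* (chr11:116330704-116335399, minus strand) encodes the forkhead factor of motile cilia, *Rsph1* (chr17:31255019-31277383, minus strand) a radial spoke protein and *Dynlrb2* (chr8:116504974-116515915, plus strand) a light chain of dynein. *Ccdc153* (chr9:44240676-44247306, plus strand) encodes a coiled-coil protein of the axoneme, and *Tmem212* (chr3:27866066-27896368, minus strand) a membrane protein. *1110017D15Rik* lies at chr4:41505009-41517333 on the minus strand. Positions are those of GENCODE for the build GRCm38.

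RFX factors bind the X-box, a palindromic element of which GTTGCC is one arm. The letters GTTGCC were searched on both strands, so that GGCAAC also counted, in the RefSeq promoter windows of GRCm38.p6, which run from 250 bases before to 50 after a gene's start. They occurred in 60 (48.4%) of the 124 cilium genes with a promoter in the table, of 152 cilium genes listed. The share was 14.1% over the 27025 genes of the table and 16.8% over the 6815 matched genes with at least 50 UMIs in the multiciliated cells. Of the 100 genes outside the selection that were most enriched in *Cebpa* fl/fl multiciliated cells, 82 had a promoter and 33 of these (40.2%) held the letters. Of the 58 among these 100 that are in no cilium list, 49 had a promoter and 16 (32.7%) held them. Nuclear genes of oxidative phosphorylation, which serve every cell, had 9 of 67 (13.4%), and the secretory cell list had 0 of 10.

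The letters were found in 3 of the 4 selection genes with a promoter in the table and in 4 of 12 (33.3%) of the 15 most enriched genes outside the selection. The windows below are those with a match, and show where the hexamer sits before the start of genes that mark these cells. Each runs 5′ to 3′ on the strand of its gene, ends before the RefSeq start, and has GTTGCC or GGCAAC in capitals. The windows of *Ccdc153*, *Dynlrb2*, *Sntn*, *Ccdc113* and *1700094D03Rik* are from the plus strand at chr9:44240495-44240560, chr8:116504934-116504999, chr14:13670780-13670845, chr8:95534064-95534099 and chr3:90062666-90062731. Those of *1110017D15Rik*, upstream of a start inside the gene, and of *Fam183b* are from the minus strand at chr4:41507765-41507812 and chr11:58801961-58802057.
Ccdc153: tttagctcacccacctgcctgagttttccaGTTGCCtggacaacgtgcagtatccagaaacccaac
Dynlrb2: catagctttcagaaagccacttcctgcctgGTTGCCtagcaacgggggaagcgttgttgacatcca
1110017D15Rik: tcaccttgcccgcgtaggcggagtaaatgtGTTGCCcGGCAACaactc
Fam183b: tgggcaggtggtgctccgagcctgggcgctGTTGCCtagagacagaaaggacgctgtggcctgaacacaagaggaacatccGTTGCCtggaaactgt
Sntn: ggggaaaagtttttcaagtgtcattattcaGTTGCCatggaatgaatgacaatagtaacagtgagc
Ccdc113: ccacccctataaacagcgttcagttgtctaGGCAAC
1700094D03Rik: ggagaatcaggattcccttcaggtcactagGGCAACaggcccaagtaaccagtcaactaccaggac

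In *1110017D15Rik* both arms stand next to each other, and *Fam183b* holds the hexamer at 67 and at 16 bases before its start. The capitals lay 152 bases before the start in *Ccdc153*, 51 in *Dynlrb2*, 66 in *Sntn*, 6 in *Ccdc113* and 112 in *1700094D03Rik*. By role, the letters were found in the promoters of 5 of 6 genes for dynein assembly factors, 6 of 9 central pair genes, 10 of 17 doublet genes and 10 of 19 genes of intraflagellar transport. They were found in 1 of 9 outer and 3 of 11 inner dynein arm genes, 2 of 8 radial spoke genes and 2 of 7 nucleotide kinase genes, beside 14.1% of all genes. Cilium genes with the letters had a median enrichment over other cells of 15-fold (58 genes) and those without 13.5-fold (56 genes) in the *Cebpa* fl/fl library, with quartiles of 5.95 to 31.9 and 5.74 to 26.2 that overlapped. TGTTTAC, the forkhead core, searched on both strands, was found in 7 of 124 cilium genes (5.65%) beside 4.05% of all genes. A match is a description of these windows and does not show binding.

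The label was checked against genes that the selection did not use. For each gene, enrichment is the CPM (a gene's UMIs scaled to a common total of all UMIs) in multiciliated cells plus 10, divided by that in all other barcodes of at least 3000 UMIs in the same library plus 10. In the *Cebpa* fl/fl library, 139 of all 152 listed cilium genes were enriched 2-fold or more, with a median of 12.7-fold. In the *Cebpa*ΔSftpc library, whose cells are other cells, the count was 138 of 152 and the median was 10.4-fold. Over the 8532 genes with at least 50 UMIs in the multiciliated cells of both libraries together, the shares enriched 2-fold were 22.9% and 20.2%. The defining genes of the basal cells of the airway, *Krt5*, *Krt14*, *Krt15*, *Trp63* and *Dapl1*, had 1 UMI in each library over all 5 genes.

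The 15 genes most enriched in the *Cebpa* fl/fl cells began with *Fam183b*, at 95.6-fold there and 51.8-fold in *Cebpa*ΔSftpc cells. *Sec14l3*, a lipid-binding protein of ciliated cells, was at 67.9-fold and 69.8-fold. *1700016K19Rik* (66.7-fold and 41.3-fold), *Sntn*, which encodes sentan of the ciliary tip (63.5-fold and 38.1-fold), *Arhgdig* (62.7-fold and 42.5-fold), *Riiad1* (62.0-fold and 44.8-fold) and the cytochrome P450 gene *Cyp2s1* (61.7-fold and 48.4-fold) came next. The others were *Ccdc113*, *Gm19935*, *1700007K13Rik*, the dynein ruler gene *Ccdc39*, the central pair gene *Spag17*, the adenylate kinase gene *Ak7*, *1700094D03Rik* and *Cfap126*, at 51.2 to 61.1-fold in the *Cebpa* fl/fl library and 34.8 to 41.3-fold in the *Cebpa*ΔSftpc library.

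Of the 100 most enriched genes in the *Cebpa* fl/fl library, all 100 were enriched at least 10-fold in the *Cebpa*ΔSftpc library, and 85 were also among its own first 100. Their median enrichment was 35.4-fold and 25.2-fold. Of these genes, 42 stood in the cilium lists and *Arhgdig* is among those outside them. Of the 100, 16 have only a clone or model name.

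**Figure D1:**
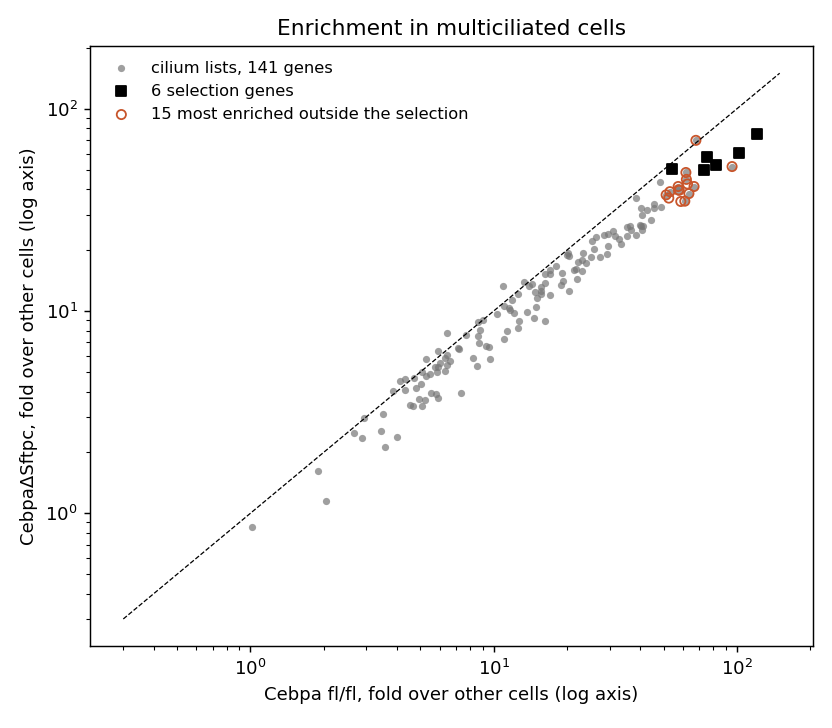
Fold enrichment of each gene in multiciliated cells over the other cells of the same library, *Cebpa* fl/fl on the x axis and *Cebpa*ΔSftpc on the y axis, both log axes with 10 CPM added, and a dashed line of equal values. Grey points are the 141 cilium genes, squares the 6 selection genes and open circles the 15 most enriched genes. Most points lie just below the line, and *Sec14l3* lies on it.

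Among themselves the cells varied in depth. The *Cebpa* fl/fl cells had from 3048 to 37938 UMIs with a median of 16627, and the *Cebpa*ΔSftpc cells had from 3014 to 102977 with a median of 13514. Other barcodes of at least 3000 UMIs had medians of 6112 and 6982 UMIs. Barcodes with 10 or more UMIs of the selection genes but under 3000 UMIs, which were not taken, numbered 4 and 47, so the minimum bears on these depths. The median number of genes per cell was 4990 and 4279, and the median mitochondrial share was 3.74% and 4.31%.

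The 152 cilium genes outside the selection gave a median of 5.11% of a cell's UMIs in the *Cebpa* fl/fl cells, with quartiles of 4.65% and 5.57% and a range of 1.77% to 7.12%. In the *Cebpa*ΔSftpc cells the median was 4.44%, the quartiles 2.84% and 5.17%, and the range 0.868% to 5.98%. The groups overlapped over most of their range, and 9 of 35 *Cebpa*ΔSftpc cells but 5 of 203 *Cebpa* fl/fl cells were under 3%. AT2 cells, taken as barcodes with at least 3% *Sftpc* UMIs, had medians of 0.141% and 0.137%, and endothelial cells 0.186% and 0.182%. The 99th percentile was 0.25% and 0.285% in AT2 cells and 0.519% and 0.476% in endothelial cells. A share of at least 2% was found in 4 and 14 barcodes outside the selection.

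The 14 *Cebpa*ΔSftpc cells under 10000 UMIs had a median cilium share of 2.59%, from 1.25% to 4.44%, and a median of 22.5 UMIs of the selection genes. The 25 *Cebpa* fl/fl cells under that depth had a median cilium share of 4.61%. Of the 9 *Cebpa*ΔSftpc cells under 3%, 8 were among these 14 shallow cells.

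**Figure D2:**
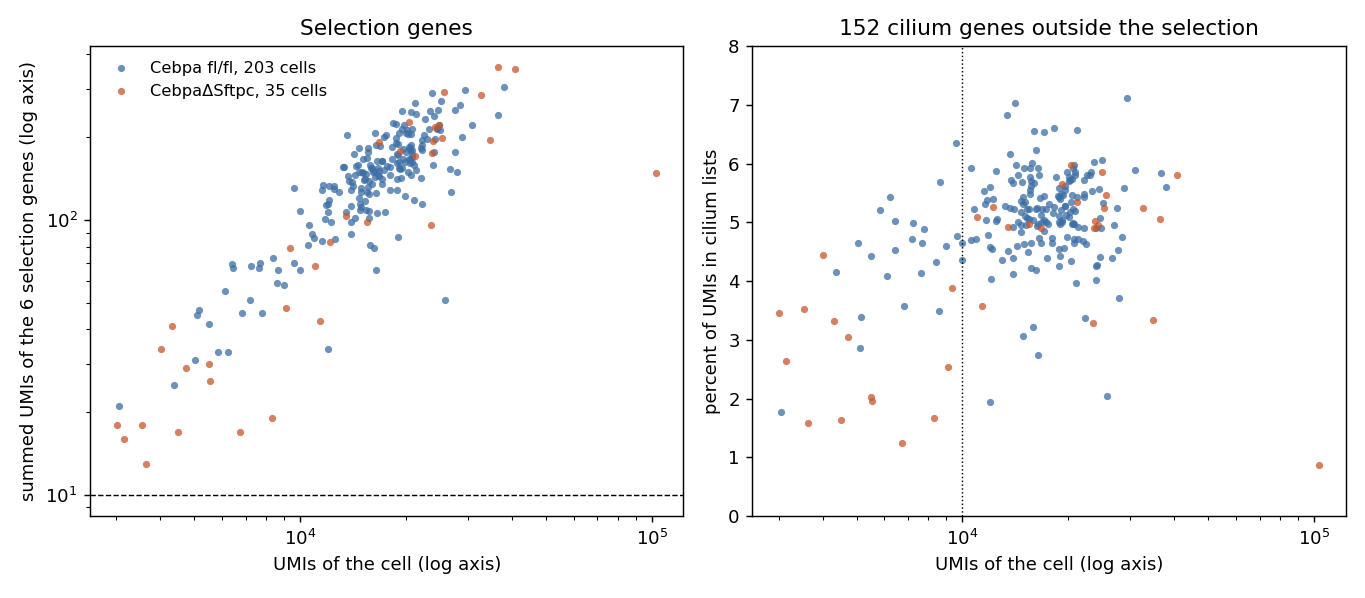
Each point is 1 multiciliated cell, with its UMIs on a log x axis. The left panel gives the summed UMIs of the 6 selection genes on a log y axis with the limit of 10 as a dashed line, and the right panel gives the percent of UMIs in the 152 cilium genes, with a dotted line at 10000 UMIs. Cells of both genotypes lie together above 10000 UMIs except for a *Cebpa*ΔSftpc cell of 102977 UMIs, and most shallow *Cebpa*ΔSftpc cells lie lower.

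The same shallow cells held RNA of other cell types. All 14 had at least 0.1% of their UMIs in 7 endothelial genes (*Pecam1*, *Cdh5*, *Cldn5*, *Ramp2*, *Egfl7*, *Tmem100* and *Calcrl*), with a median of 0.441%, and the 25 shallow *Cebpa* fl/fl cells had 8 such cells and a median of 0.0415%. The erythroid genes, led by *Hbb-bs*, gave at least 0.1% of UMIs in 9 of the 35 *Cebpa*ΔSftpc cells, all under 10000 UMIs, with a highest value of 4.08%. No *Cebpa* fl/fl cell reached 0.1%. AT2 genes reached 2.98% in a shallow *Cebpa*ΔSftpc cell. What part this foreign RNA has in the lower cilium shares was not tested.

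One further *Cebpa*ΔSftpc cell stood apart. It had 102977 UMIs, which is 16.2% of all UMIs of the 35 cells, and 63182 of these (61.4%) were *Scgb1a1*, the secretoglobin of club cells. It also had 148 UMIs of the selection genes and a cilium share of 0.868%. Among *Cebpa* fl/fl cells, 3 had at least 5% of their UMIs in *Scgb1a1*, *Scgb3a1* and *Scgb3a2*. A droplet with 2 cells and a cell that holds both kinds of RNA cannot be told apart here.

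**Figure D3:**
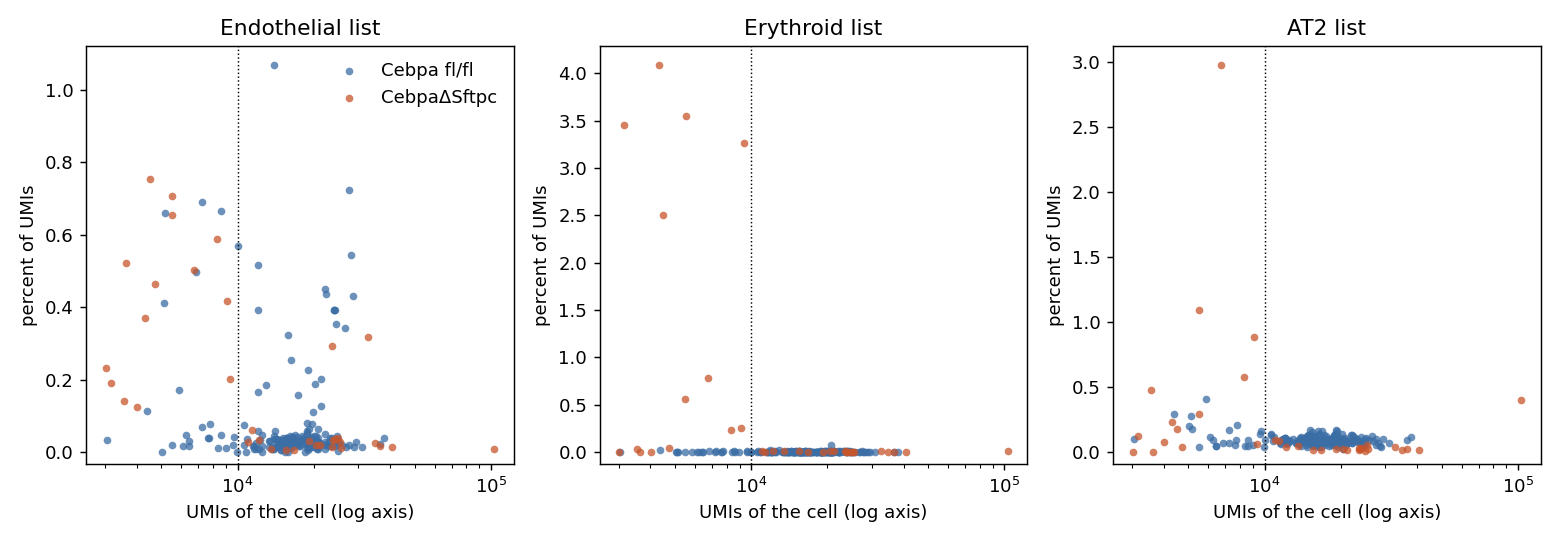
Percent of a cell's UMIs in the endothelial, erythroid and AT2 gene lists (y axes) against its UMIs (log x axes), for each multiciliated cell, with a dotted line at 10000 UMIs. The highest erythroid and AT2 shares belong to *Cebpa*ΔSftpc cells under 10000 UMIs, and *Cebpa* fl/fl cells with endothelial RNA occur at all depths.

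For these reasons values by genotype are given below for all 203 and 35 cells or for the 176 and 20 cells with at least 10000 UMIs and less than 5% secretoglobin UMIs, called the deep cells. Single genes and lists are mostly given for the deep cells. This subset was chosen after the values had been seen. All cells summed to 3437271 and 635252 UMIs, and deep cells to 3210178 and 456794. In the deep cells the median endothelial share was 0.0270% and 0.0266%, and the cilium shares were 5.22% (1.95% to 7.12%) in *Cebpa* fl/fl and 5.08% (3.28% to 5.98%) in *Cebpa*ΔSftpc. The range of the *Cebpa*ΔSftpc cells lay within that of the control cells. The median number of cilium genes found per deep cell was 125 and 129.5, at median depths of 17444 and 23624 UMIs.

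The share of multiciliated cells was lower in the *Cebpa*ΔSftpc library. They were 2.47% (2.15% to 2.83%) of the 8209 *Cebpa* fl/fl barcodes with at least 3000 UMIs and 0.563% (0.393% to 0.783%) of 6212 *Cebpa*ΔSftpc barcodes, a log2 ratio of −2.13 (−2.70 to −1.61). With neither a minimum depth nor the condition on *Ptprc* the shares were 1.83% (210 of 11487) and 0.755% (100 of 13238), a log2 ratio of −1.28, and from 10000 UMIs on the ratio was −3.14. The size of this ratio also depended on what else was counted. A *Ptprc* UMI was absent from 8035 of the *Cebpa* fl/fl barcodes and 3963 of the *Cebpa*ΔSftpc barcodes, and among these the shares were 2.53% and 0.883% (log2 −1.52). Set against AT2, secretory and multiciliated cells alone, they were 30.8% (203 of 660) and 33.7% (35 of 104), a log2 ratio of 0.13 (−0.43 to 0.65).

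Against these 2 types, of which AT2 cells were taken by their *Sftpc* UMIs, the interval of the multiciliated ratio holds 0. AT2 cells numbered 446 and 64 and secretory cells 11 and 5. Against endothelial cells (5762 and 3268) the ratio was −1.68 (−2.24 to −1.16). Cells in a suspension depend on tissue digestion and any sort, so the shares describe the libraries.

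The condition on *Ptprc* took more cells from 1 library. It removed 3 *Cebpa* fl/fl cells and 18 *Cebpa*ΔSftpc cells, of which 2 and 11 had exactly 1 *Ptprc* UMI. Endothelial cells, which should lack *Ptprc*, had a *Ptprc* UMI in 0.809% and 16.3% of cells. Without the condition the multiciliated shares were 2.51% and 0.853% (log2 −1.56). At the threshold on the selection genes, the lowest cells inside had 21 and 13 UMIs and the highest barcodes outside had 4 and 7.

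The selection genes themselves are given next as pooled CPM, without a test because they chose the cells. *Foxj1* was at 728 CPM in *Cebpa* fl/fl and 727 CPM in *Cebpa*ΔSftpc cells. *Ccdc153*, the most abundant, was at 2386 and 1960 CPM, *Tmem212* at 1672 and 1226 CPM, *Dynlrb2* at 1657 and 1181 CPM, *1110017D15Rik* at 1221 and 878 CPM and *Rsph1* at 1069 and 803 CPM. In the deep cells their log2 ratios of *Cebpa*ΔSftpc over *Cebpa* fl/fl ran from −0.25 for *Dynlrb2* to 0.33 for *Foxj1*, and *Ccdc153* was at −0.02. *Foxj1* was found in 203 of 203 and in 30 of 35 cells.

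Over all cells the 152 cilium genes gave 51233 CPM in *Cebpa* fl/fl and 40504 CPM in *Cebpa*ΔSftpc. Of these genes, 149 had a UMI and 141 had at least 50 UMIs over both libraries, the minimum for a ratio. Their median log2 ratio was −0.34, where that of all 8532 genes was −0.18. None of the 141 was higher 2-fold or more, beside 1.02% of all genes, and 3 (*Ropn1l*, *Sass6* and *Ribc2*) were lower by that much, beside 2.85% of all genes. The interval lay below 0 for 76 and above 0 for none, beside 16.2% and 3.42% of all genes. Without the *Cebpa*ΔSftpc cell of 102977 UMIs the median of all genes was −0.03.

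In the deep cells this difference was smaller. The cilium genes gave 51861 and 50106 CPM, a pooled log2 ratio of −0.05 (−0.07 to −0.03), and their median log2 ratio was −0.04 beside −0.02 for all 8260 genes. None of the 141 was higher 2-fold, beside 1.09% of all genes, and none was lower 2-fold, beside 2.72%. The interval lay above 0 for 7 and below 0 for 17 of them, beside 5.06% and 5.93% of all genes.

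Among the listed regulators of the programme, no interval of a gene with enough UMIs excluded 0 in deep cells. *Foxj1*, a selection gene outside this list, was at 0.33 there. Of the 6 selection genes, it was the only 1 with an interval above 0 in deep cells. *Myb*, a transcription factor needed for centriole multiplication, was at 212 and 232 CPM in the deep cells (log2 0.13, −0.18 to 0.43). *Rfx3* was at 104 and 120 CPM (0.21, −0.23 to 0.62) and *Rfx2* at 70.7 and 65.7 CPM (−0.11, −0.71 to 0.45). The intervals of *Myb*, *Rfx3* and *Rfx2* hold 0, and the list had 5 of 9 genes with enough UMIs. *Mcidas*, which encodes multicilin, had 1 UMI in *Cebpa* fl/fl cells and 0 in *Cebpa*ΔSftpc cells, and *Gmnc*, for GEMC1, had 2 and 1. In both libraries the early regulators that act in the making of these cells were thus at or near 0, which at the *Cebpa*ΔSftpc depth still allows 3 UMIs. Of 6 centriole genes with enough UMIs, *Ccdc78*, the most abundant, was at 258 and 250 CPM in the deep cells (−0.05). *Ccp110*, which caps centrioles, was at 138 and 151 CPM (0.13), and *Sass6*, of the centriole cartwheel, was at −0.58 (−1.84 to 0.46).

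Among the motors, *Dnah5*, the outer arm heavy chain, was at 561 CPM in deep *Cebpa* fl/fl cells and 766 CPM in deep *Cebpa*ΔSftpc cells (log2 0.45, 0.28 to 0.61). It was the only one of 11 outer arm genes with an interval above 0, beside 5.06% of all genes, none lay below, and the docking gene *Ccdc151* was lowest over all cells (−0.53) and −0.35 (−0.87 to 0.13) in deep cells. Of 13 inner arm genes, *Dnah10* alone had an interval above 0 (182 and 250 CPM, 0.46, 0.16 to 0.75), a share near that of all genes. *Ccdc39*, a ruler that sets the repeat of the axoneme, was at 790 and 779 CPM (−0.02), and *Wdr78* was at −0.22 (−0.48 to 0.03). The medians of the outer and inner arm lists were −0.03 and 0.10. Dynein assembly factors, which fold the arms in the cytoplasm, had a median of 0.18 over 9 genes, with *Lrrc6*, the most abundant, at 222 and 221 CPM, *Dnaaf2* at 0.39 (−0.11 to 0.85) and no interval that excluded 0.

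For the structures between the doublets, *Ropn1l* of the radial spoke was at 78.2 and 43.8 CPM in deep cells (−0.84, −1.57 to −0.18), the only one of 9 radial spoke genes with an interval below 0, beside 5.93% of all genes. *Nme5*, the most abundant spoke gene, was at 462 and 440 CPM (−0.07) and *Iqub* at 0.14. In the nexin-dynein regulatory complex *Drc1* was at 455 and 403 CPM (−0.18, −0.41 to 0.05), *Tcte1* at 0.30 and *Iqcd* at −0.68 (−1.30 to −0.12). Central pair genes had a median of 0.11 over 10 genes, with *Spag17* at 651 and 716 CPM, *Cfap221* at 0.49 (−0.24 to 1.16), *Spag6l* at −0.18 and *Cfap46* at 0.36, the only interval above 0, beside 5.06% of all genes. The radial spoke list had the lowest median, −0.25, among the cilium lists in deep cells and also in all cells, at −0.61.

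The doublet list, of tubulins and proteins bound to the microtubule wall, had 7 of 20 intervals below 0 in deep cells and none above, beside 5.93% and 5.06% of all genes, with a median of −0.20. *Tubb4b*, a tubulin of cilia, was at 2954 and 2585 CPM (−0.19, −0.28 to −0.10), and *Ribc2* was at 31.5 and 17.5 CPM (−0.85, −2.10 to 0.19). Of 23 genes of intraflagellar transport, which carries parts along the cilium, 3 intervals lay below 0 and none above, beside the same shares of all genes. *Ift43* was at 703 and 532 CPM (−0.40, −0.60 to −0.21), *Ift52* at −0.58 (−1.14 to −0.06) and *Ift172* at 0.21 (−0.10 to 0.51).

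The kinases that supply nucleotides in the cilium had a median of 0.04 over 7 genes, with *Ak7* at 653 and 670 CPM, *Ckmt1* at 0.23 and *Ak8* at −0.15, all with intervals that hold 0, and *Ak9* at 0.36 with the only interval above 0, beside 5.06% of all genes. Among 19 other genes typical of ciliated cells, 3 intervals lay above 0 and 5 below, beside 5.06% and 5.93% of all genes. *Sec14l3* was the most abundant, at 3624 and 3862 CPM (0.09, 0.02 to 0.16). *Cdhr3*, a cadherin of the ciliated surface, was at 469 and 611 CPM (0.38, 0.19 to 0.57), and *Fam183b* was at 1513 and 1103 CPM (−0.46, −0.59 to −0.32).

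**Figure D4:**
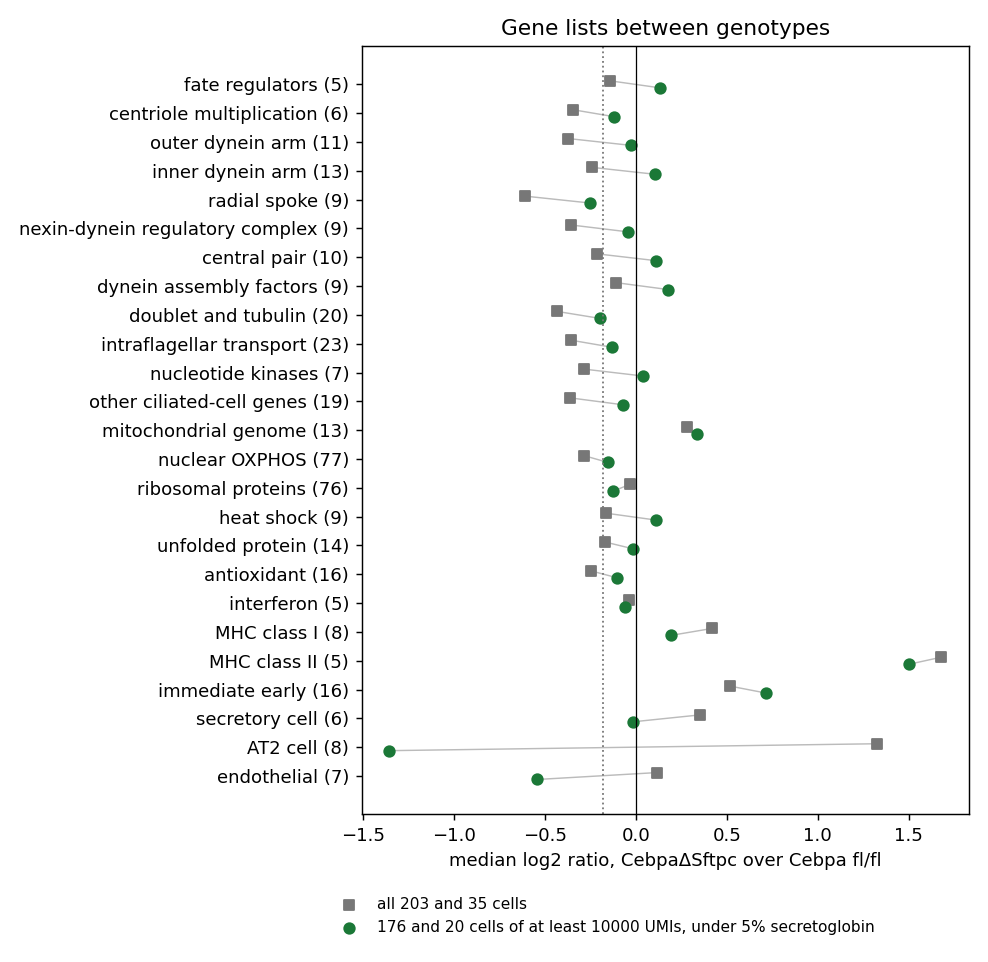
Median log2 ratio of *Cebpa*ΔSftpc over *Cebpa* fl/fl (x axis) for each gene list (y axis, with the number of genes of at least 50 UMIs in all cells). Squares are all 203 and 35 cells, circles the 176 and 20 deep cells, the solid line is 0 and the dotted line the median of all genes over all cells, −0.18. All cilium lists lie left of 0 with all cells and between −0.25 and 0.18 with deep cells. The lists of MHC class I, MHC class II, immediate early genes and the mitochondrial genome lie to the right of 0 in both.

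Genes known from club cells were part of what these cells contained. *Cbr2*, a carbonyl reductase, was at 5447 CPM in *Cebpa* fl/fl and 4767 CPM in *Cebpa*ΔSftpc cells, above every selection gene, and had UMIs in 202 of 203 and 35 of 35 cells. *Cyp2f2*, a cytochrome P450 of club cells, was at 1430 and 1965 CPM and was enriched 34.5-fold and 26.6-fold over other cells. *Lypd2* was at 164 and 137 CPM and *Hp*, haptoglobin, at 627 and 741 CPM. *Muc5b*, a mucin of secretory cells, had no UMI in either library, and *Bpifb1* had 1 and 0. In deep cells the ratios were −0.08 for *Cbr2*, 0.34 (0.23 to 0.45) for *Cyp2f2*, 0.05 for *Lypd2* and −0.28 for *Hp*.

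*Scgb1a1* was found in 202 of 203 and 33 of 35 cells, at 3532 and 100420 CPM over all cells. The *Cebpa*ΔSftpc cell of 102977 UMIs held 99.04% of the second value. In the deep cells it was at 1356 and 1189 CPM (−0.19, −0.32 to −0.06), where endothelial cells of the same libraries were at 632 and 352 CPM. *Scgb3a2* behaved alike, with 97.4% of its *Cebpa*ΔSftpc UMIs in that cell and 50 and 12 UMIs in deep cells. The median log2 ratio of 6 secretory genes was 0.35 over all cells and −0.02 over deep cells.

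*Cebpa* (chr7:35119293-35121928, plus strand) had 137 UMIs in 89 *Cebpa* fl/fl cells and 21 UMIs in 13 *Cebpa*ΔSftpc cells. This was 39.9 CPM (33.5 to 47.1) and 33.1 CPM (20.5 to 50.5), a log2 ratio of −0.27 (−1.01 to 0.40), and −0.13 (−0.96 to 0.60) in deep cells. AT2 cells were at 153 and 134 CPM, and a 3′ tag can lie outside the deleted part, so these values do not check the deletion. Of the related factors, *Cebpb* was at 444 and 370 CPM in deep cells (−0.26, −0.50 to −0.03) and *Cebpd* at 43.0 and 59.1 CPM (0.46, −0.19 to 1.06).

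Immediate early genes, which cells switch on within minutes of a stimulus or of handling such as tissue digestion, were higher in the *Cebpa*ΔSftpc cells. In deep cells the 16 genes summed to 6959 and 11370 CPM, a pooled log2 ratio of 0.71 (0.66 to 0.75). The interval lay above 0 for 12, beside 5.06% of all genes, and below 0 for none, and 3 were higher 2-fold, beside 1.09% of all genes. Over all cells they summed to 6745 and 9305 CPM, a pooled log2 ratio of 0.46 (0.42 to 0.51). *Fosb* was at 196 and 587 CPM (1.58, 1.37 to 1.79), *Nr4a1* at 123 and 289 CPM (1.24, 0.94 to 1.52) and *Atf3* at 350 and 720 CPM (1.04, 0.86 to 1.22). *Fos*, the most abundant, was at 1458 and 2454 CPM (0.75, 0.66 to 0.85), *Egr1* at 520 and 970 CPM and *Jun* at 1056 and 1670 CPM. *Jund*, *Dusp1* and *Ier3* differed little, at 0.06, 0.00 and −0.12, all with intervals that hold 0.

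Single cells of both genotypes ranged widely in these genes. The immediate early share of a deep cell ran from 0.0570% to 6.02% with a median of 0.290% in *Cebpa* fl/fl and from 0.0704% to 4.94% with a median of 0.571% in *Cebpa*ΔSftpc, so the groups overlapped. It was at least 1% in 32 of 176 (18.2%, 12.8% to 24.7%) and 7 of 20 cells (35%, 15.4% to 59.2%), intervals that also overlapped. The same 16 genes were at 7718 and 7924 CPM in endothelial cells and at 3436 and 4083 CPM in AT2 cells, and at 561 and 2826 CPM in the 11 and 5 secretory cells. With 1 library each, the genotype, the mice and the handling of the library cannot be told apart.

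**Figure D5:**
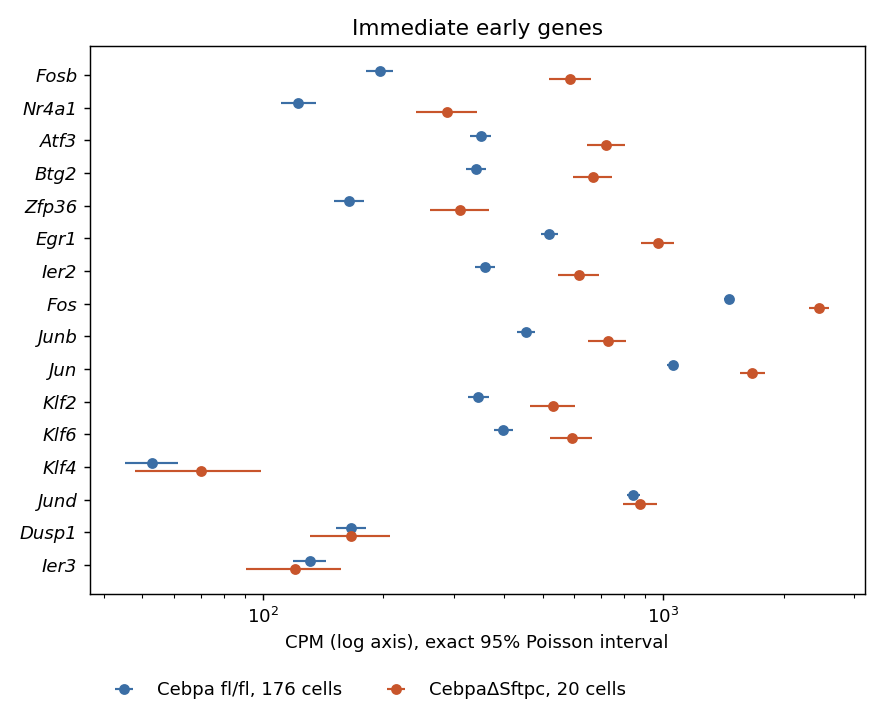
Level of each immediate early gene in CPM (log x axis) over the deep multiciliated cells, 176 *Cebpa* fl/fl and 20 *Cebpa*ΔSftpc, with exact 95% Poisson intervals that cover counting error only. *Fosb*, *Nr4a1* and *Atf3* lie farthest apart, and the intervals of *Klf4*, *Jund*, *Dusp1* and *Ier3* overlap.

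MHC class II genes, which present antigen mainly on dendritic cells, macrophages and B cells and also on AT2 cells, were higher in *Cebpa*ΔSftpc cells. Of 5 genes with enough UMIs, 4 were higher 2-fold in all cells and in deep cells, beside 1.02% and 1.09% of all genes. *Cd74*, the invariant chain, was at 67.0 and 256 CPM in deep cells (1.94, 1.60 to 2.27), and *H2-Aa*, *H2-Ab1* and *H2-Eb1* were at log2 ratios of 1.51, 1.41 and 1.503. *H2-DMb1* was at −0.06 (−1.58 to 1.17). The list summed to 172 and 508 CPM, where endothelial cells were at 1484 and 2372 CPM.

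*Cd74* was found in 63 of 176 and 16 of 20 deep cells, but its *Cebpa*ΔSftpc UMIs were unevenly spread. The deep cell with the most *Cd74* held 64.1% of the *Cd74* UMIs of the *Cebpa*ΔSftpc deep cells. *Cd74* was also far less abundant than in the other cells of each library, with enrichments of 0.07 and 0.16. MHC class I genes, found in nearly all cells, had a median of 0.19 over 8 genes, with *H2-D1* at 537 and 479 CPM (−0.16, −0.37 to 0.04) and *Psmb9* at 0.27.

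Some leukocyte genes had more UMIs in the *Cebpa*ΔSftpc cells. *S100a8* and *S100a9*, abundant in neutrophils, had 2 and 3 UMIs in the 203 *Cebpa* fl/fl cells, and 20 and 32 UMIs in 13 and 15 of the 35 *Cebpa*ΔSftpc cells. *Chil3*, of alveolar macrophages, had 1 and 35 UMIs. Endothelial cells of the *Cebpa*ΔSftpc library, which should lack them, had 53.5, 79.1 and 74.9 CPM of *S100a8*, *S100a9* and *Chil3*, where deep multiciliated cells had 32.8, 50.4 and 39.4 CPM. The multiciliated levels did not exceed those of endothelial cells. The whole neutrophil list of 7 genes had 8 and 58 UMIs, the macrophage list 16 and 52, and the lymphocyte list 3 and 2. The neutrophil gene *Il1r2* and the macrophage gene *Adgre1* were at 0 in both.

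Of the genes lower in *Cebpa*ΔSftpc cells, *Cldn18* was well measured. This claudin of epithelial tight junctions was at 338 and 148 CPM over all cells (−1.19, −1.51 to −0.89) and at 334 and 166 CPM in deep cells (−1.004, −1.36 to −0.67). Endothelial cells, at 8.76 and 13.8 CPM, had little of it. *Chchd10*, a mitochondrial protein gene, was at 2407 and 1565 CPM in deep cells (−0.62, −0.73 to −0.51), and endothelial cells were at 10.7 and 4.46 CPM. *Krt7*, a keratin of simple epithelia, was at 164 and 98.5 CPM (−0.74, −1.21 to −0.30) and *Prr29* at 176 and 101 CPM (−0.80, −1.27 to −0.37). In each of these 4 genes the *Cebpa*ΔSftpc cells were lower both over all cells and over deep cells. AT2 cells of the same libraries went the same way in *Cldn18* (880 and 706 CPM), *Chchd10* (627 and 495 CPM) and *Krt7* (54.3 and 35.6 CPM). They had little *Prr29* (0.96 and 0.91 CPM). In the 11 and 5 secretory cells *Cldn18* went the other way, at 5.55 and 53.4 CPM.

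*AW112010* was at 163 and 67.9 CPM in deep cells (−1.26), and its log2 ratio over all cells of −1.43 became −0.023 (−0.28 to 0.23) when the cells with a *Ptprc* UMI were let in. The others of the 10 genes farthest below 0 over all cells were less abundant. The GTPase gene *Rasd1* was at 33.95 and 8.76 CPM (−1.96), *Taz*, for tafazzin, at 52.3 and 17.5 CPM (−1.58), *Faap20* at 49.5 and 15.3 CPM (−1.69) and *9530077C05Rik* at 40.5 and 10.9 CPM (−1.89). *Gm43063* had 77 and 1 UMIs. The *Cebpa*ΔSftpc values of *Rasd1*, *Taz*, *Faap20* and *9530077C05Rik* rested on 4 to 8 UMIs.

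Among deep cells, surfactant RNA made the largest difference downward. *Sftpc*, of AT2 cells, was at 537 and 54.7 CPM in deep cells (−3.29, −3.93 to −2.73), although the choice of cells used *Sftpc* only as an upper limit. Over all cells *Sftpc* was at 546 and 427 CPM (−0.36, −0.55 to −0.17). In endothelial cells, which should lack it, *Sftpc* was at 775 and 152 CPM, so both deep-cell values lay below the background. *Sftpa1* was at 75.1 and 24.1 CPM beside 116 and 37.8 CPM in endothelial cells. Endothelial *Kdr* (156 and 3 UMIs), *Plvap* (238 and 11 UMIs), *Cyth3* (132 and 3 UMIs) and *Cd200* (162 and 7 UMIs) were also among the lowest in deep cells, with *Clu* (343 and 19 UMIs) and *Eif4ebp2* (166 and 6 UMIs). Of the cells of at least 10000 UMIs, 23 of 178 and 2 of 21 had at least 0.1% of UMIs in the endothelial list, whose part in these differences was not tested.

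Of the 10 genes farthest above 0 over all cells, 8 are the hemoglobin genes *Hbb-bs*, *Hba-a2*, *Hbb-bt* and *Hba-a1*, the secretoglobin genes *Scgb1a1* and *Scgb3a2*, and the surfactant genes *Sftpa1* and *Sftpb*. *Hbb-bs* was at 17.5 and 965 CPM (5.79, 5.41 to 6.20) over all cells and at 16.5 and 19.7 CPM (0.26, −0.95 to 1.29) over deep cells. *Sftpa1* was at 76.8 and 438 CPM (2.51) over all cells and at −1.64 over deep cells, and *Sftpb* was at 2.28 and −1.07. Of the other 2 genes, *Igfbp3* and *Lgals1*, 1 cell held 100% and 64.7% of the UMIs of all *Cebpa*ΔSftpc cells, and 100% and 91.7% of those of the deep cells. The same cell held most UMIs of the collagen genes *Col3a1* (94.7%) and *Col1a1* (97.9%), and of *Emp3* and *Eln* (96% and 90.9%), in deep cells.

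The remaining lists of other lung cells were low. AT2 genes had a median log2 ratio of 1.33 over all cells, with *Sftpd* highest at 13.4 and 77.1 CPM, and of −1.36 over deep cells. The endothelial list had 0.12 and −0.54, with *Ramp2* at 155 and 74.4 CPM in deep cells (−1.06) and *Calcrl* at 0.24 (−0.21 to 0.66). Of the alveolar type 1 genes, *Hopx* was at 353 and 335 CPM in deep cells (−0.07) and *Clic5* at 95.6 and 103 CPM (0.11). Fibroblast genes had a median of 0.87 over 6 genes in deep cells, with *Mgp* at 179 and 420 CPM and *Dcn* at 94.4 and 67.9 CPM. A single cell held 73.6% of the *Mgp* UMIs and 79.4% of the *Dcn* UMIs of all *Cebpa*ΔSftpc cells. Neuroendocrine genes had 130 and 15 UMIs over all cells and platelet genes 144 and 13.

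*Gm42418* and *AY036118*, whose tags are known to include ribosomal RNA, were higher in *Cebpa*ΔSftpc cells, at 8997 and 24830 CPM (1.46) and at 350 and 1215 CPM (1.80) in deep cells. Endothelial cells of the libraries differed in the same direction, at 21386 and 42075 CPM and at 1121 and 4091 CPM. The difference is thus found in another cell type of the same libraries as well.

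The genes of the mitochondrial genome were higher and the nuclear genes of oxidative phosphorylation slightly lower. In deep cells the 13 mitochondrial genes summed to 39657 and 48792 CPM, 11 intervals lay above 0 and none below, beside 5.06% and 5.93% of all genes, and the median log2 ratio was 0.33. Over all cells they summed to 41078 and 46663 CPM, with a median of 0.28. *mt-Co1* was at 6414 and 7049 CPM (0.14), *mt-Atp8* at 237 and 422 CPM (0.83) and *mt-Cytb* at −0.01. Of 77 nuclear genes, 14 intervals lay below 0 and none above in deep cells, beside the same shares of all genes, with a median of −0.15. The median mitochondrial share per deep cell was 3.68% and 4.57%, and mitochondrial RNA also rises in damaged cells. For the mitochondrial genes, 2 other cell types went the same way, AT2 cells at 59519 and 72010 CPM and endothelial cells at 31846 and 35256 CPM. All other barcodes together did not, at 35376.5 and 34853.1 CPM. The nuclear genes were at 16408 and 15329 CPM in AT2 cells and 17202 and 15792 CPM in endothelial cells. The part of RNA quality was not tested.

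Other lists had medians nearer to 0 in deep cells. Of 9 heat shock genes with enough UMIs, 4 intervals lay above 0 and 1 below, beside 5.06% and 5.93% of all genes, and the median was 0.11. *Hsp90aa1* was at 4735 and 5263 CPM (0.15, 0.09 to 0.21), *Dnajb1* at 0.73 (0.27 to 1.17) and *Hspb1* at −0.87 (−1.30 to −0.47). The 14 genes of the unfolded protein response had a median of −0.01, with *Hsp90b1* at 0.10, *Atf4* at 0.19 and *Dnajb9* at −1.19 (−3.11 to 0.24). The 15 antioxidant genes had a median of −0.11, with *Gstm1*, a glutathione transferase, at 1634 and 1484 CPM (−0.14, −0.26 to −0.02) and *Gclc* at −0.30. Of these 15 genes, 1 interval lay above 0 and 3 below, beside the same shares of all genes. Interferon genes had a median of −0.06 over 5 genes, led by *Usp18* at 162 and 123 CPM (−0.40, −0.82 to 0.00). Ribosomal protein genes had a median of −0.13 over 76 genes, with 28 intervals below 0 and 1 above, beside 5.93% and 5.06% of all genes.

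Spread between cells was measured after thinning to 10000 UMIs each of the 178 *Cebpa* fl/fl cells of at least that depth. The Fano factor, the variance over the mean of a gene's UMIs, had a median of 1.19 over 2040 genes, where counting alone gives 1. *Scgb1a1* stood highest at 1014, with a median of 9 UMIs and a range of 0 to 2220, where the 2 cells of at least 5% secretoglobin were kept. *Gm42418* (158.5), *Mgp* (77.9), *Malat1* (55.4) and *S100a6* (54.0) came next. Immediate early genes followed, with *Fos* at 43.2 (median 3 UMIs, 0 to 121), *Jun* at 41.7 and *Atf3* at 38.0. Cilium genes lay far lower, with *Tubb4b* highest at 7.73, *Tuba1a* at 5.31, *Sec14l3* at 4.67 and *Iqcd* lowest at 0.802. The selection genes *Ccdc153* and *Foxj1* were at 3.03 and 2.14, given as a description because they chose the cells. In 21 *Cebpa*ΔSftpc cells the median over 2053 genes was 1.24, and *Tubb4b* was at 5.68, *Sec14l3* at 4.47 and *Fos* at 46.5. *Scgb1a1* was at 5924 there, where the cell of 102977 UMIs was kept. The highest Fano factors thus lay outside the cilium in both libraries.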

How the data were processed

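The data were 1 scRNA-Seq library (10x 3′) of lung cells per genotype, each from 3 pooled mice. The authors deposited whole UMI counts per gene and barcode, not normalized, made with Cell Ranger (version 6.1.1 in the submitters' processing notes, 5.0.0 in the file header) on mm10. The study's cell number of 25094 equals all deposited barcodes, and its stated filter on genes and mitochondrial counts left 11487 and 13238. The labels speak of a sort and the study of whole lungs. The libraries held 69200420 and 64697396 UMIs, and 45 barcode sequences occurred in both, none of them a multiciliated cell.

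UMIs of the multiciliated cells were added up per library and given as CPM of their total, with exact Poisson intervals. Shares have Clopper-Pearson intervals, and log2 ratios of *Cebpa*ΔSftpc over *Cebpa* fl/fl have exact conditional binomial intervals, with sums floored at 3 counts. Genes with at least 50 UMIs over both libraries entered ratios, and 2-fold was the threshold for calling a gene higher or lower, which is no test. Medians of lists are over genes with enough UMIs. Secretory cells were barcodes with at least 5% of UMIs in *Scgb1a1*, *Scgb3a1*, *Scgb3a2*, *Cyp2f2* and *Bpifb1*, and endothelial cells had at least 10 UMIs of *Pecam1*, *Cdh5* and *Cldn5* and none of *Epcam*. Named genes are the selection genes, *Cebpa*, the 15 most enriched genes with at least 20 UMIs, the 10 farthest above and below 0 by the interval bound nearest 0, and the most abundant, highest and lowest of each list over all cells. A gene that this rule names is not reported here. *Dnah10*, *Iqcd*, the *H2* genes, the leukocyte genes, the first genes of the deep cells, and further members of a list were chosen after their values were seen. The members and lists were chosen with earlier results of these data known. Doublets were kept, since the automatic threshold of Scrublet called none of the cells. The code was tested on simulated data. Scrublet was run in scanpy 1.11.5, intervals came from scipy 1.17.1, tables from pandas 2.3.3 and figures from matplotlib 3.10.9, with numpy 2.4.6 and Python 3.11.15.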

Additional observations from a re-analysis of the deposited data

How the results depend on the processing

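No paired analysis was possible because each genotype had 1 library, and no replicate could be left out. The share of multiciliated cells had a log2 ratio of −2.13. It was −1.43 with at least 1500 UMIs, −1.56 without the condition on *Ptprc* and −1.52 over barcodes without *Ptprc*, and −3.14 and −3.20 in cells of at least 10000 UMIs and in the deep cells. The alternatives with 10000 UMIs, without mixed cells or over barcodes without *Ptprc* were chosen after seeing the data. The cilium median of −0.34 was −0.17 scaled without 5 lists, −0.16 centred on all genes, −0.14 without the largest cell or without cells of at least 5% secretoglobin, −0.092 without mixed cells and −0.043 in deep cells. The secretory median of 0.35 was −0.34 thinned, −0.13 as a mean over cells, −0.28 without the largest cell and −0.090 without the secretoglobin cells. It was also below 0 without the top 8% of Scrublet scores (−0.052), without mixed cells (−0.043) and in deep cells (−0.018). In the other alternatives it stayed above 0.

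The percentage of genes 2-fold higher, 1.02, was 1.80 with at least 5 selection UMIs, 1.59 with 1500 UMIs, 2.71 without the top 8% of Scrublet scores, 3.04 and 0.459 with at least 20 and 200 UMIs a gene, 2.21 thinned, 5.11 as a mean over cells, 1.96 scaled, 2.05 centred, 1.85 without the largest cell, 1.76 without the secretoglobin cells and 0.673 with 10000 UMIs. The percentage lower, 2.85, was 1.64 without the *Ptprc* condition, 1.62 by Scrublet, 0.561 with 200 UMIs a gene, 6.14 thinned, 4.65 as a mean over cells, 1.55 scaled, 1.44 centred, 1.72 without the largest cell, 1.75 without the secretoglobin cells, 6.04 after subtraction of free RNA and 4.28 with 10000 UMIs. Why these percentages moved was not tested.

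*Scgb1a1* turned from 4.83 to −0.46 by Scrublet, −1.64 without the largest cell, −0.26 without the secretoglobin cells, −0.063 without mixed cells and −0.19 in deep cells. *Scgb3a2* turned to −0.54 without the largest cell, *Hba-a1* to −0.22 with 10000 UMIs and −0.27 in deep cells, *Sftpa1* to −1.44 and −1.64 and *Sftpb* to −0.57 and −1.07 without mixed cells and in deep cells, and *Rasd1* and *Gm43063* to 0.12 and 1.31 when thinned. *Gm43063* had 2 *Cebpa*ΔSftpc UMIs, so the floor of 3 counts sets its thinned value. The cause of the other turns was not tested.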
